A study of Homo sapiens with 8 samples.

Results

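Small nucleolar RNAs and their Cajal body relatives were followed on bead arrays of a breast cancer line that carries an inducible estrogen receptor. Members were the gene rows of the non-normalized table whose symbol begins with SNORA, SNORD or SCARNA and a digit. There were 300 such rows of 31412, made up of 102 SNORA, 174 SNORD and 24 SCARNA rows. The rows were singled out with earlier results of these arrays in view, among them low small RNA signals on the second array of vehicle culture 3, so the differences below are given first as descriptions of these cultures. The cells were MDA-MB-231, a triple-negative line, with estrogen receptor beta (ESR2) under doxycycline control. The 3 estradiol cultures received 1 nM estradiol and the 3 vehicle cultures received ethanol, each for 5 days with fresh medium on day 3. All 6 cultures grew in medium with stripped serum and 100 ng/ml doxycycline, so the receptor was induced in both groups and no culture without it was measured. The labels name no clone. By sample title, estradiol culture 1 and vehicle culture 3 each had a repeat array, which makes 8 arrays, and a culture with a pair of arrays entered the tests as their mean. The series text instead ties both repeats to culture 3. The labels do not say how the cultures were kept apart, so the spread behind each p-value may be technical.

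Small nucleolar RNAs guide chemical changes in other RNAs. Box C/D RNAs (SNORD) pair with ribosomal RNA and direct the methyltransferase fibrillarin to a ribose, whereas H/ACA RNAs (SNORA) direct the pseudouridine synthase dyskerin to a uridine. Cajal body RNAs (SCARNA) carry the same boxes but act on the small nuclear RNAs of the spliceosome. A few members, such as U3 (SNORD3), U13 (SNORD13) and U17 (SNORA73), serve the processing of the ribosomal RNA precursor and not ribose methylation or pseudouridylation. Most human members lie in introns of host genes and are trimmed out of the spliced intron. The mature RNAs have no poly(A) tail, and the labels name the MessageAmp kit for the labelled RNA, so whether a row measured the mature RNA or a longer precursor was not tested.

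The array found most members only at background. Of the 300 rows, 212 had no array with a detection p under 0.01, 20 had 1 or 2 such arrays, 35 had 3 to 7 and 33 had all 8. A row was tested where at least 3 of the 8 arrays detected it, which left 68 members: 37 of 102 SNORA rows, 25 of 174 SNORD rows and 6 of 24 SCARNA rows. The number of members detected ran from 48 to 63 on the estradiol arrays and from 53 to 68 on the vehicle arrays. Over all rows, 10513 to 11123 were detected per estradiol array and 10172 to 10652 per vehicle array. The members were dim, with a median normalized log2 signal of 5.74 over the 68 tested, against 7.78 over all 11191 tested rows, while the dimmest detected single-probe row of each array lay at 5.14 to 5.39. ESR2 was detected on all 8 arrays at 10.18 ± 0.06 in estradiol cultures and 11.35 ± 0.17 in vehicle cultures (log2, SD, n = 3 each). The receptor's row was thus itself lower with estradiol (log2 change -1.17, adjusted p = 5.1e-05, limma). Of the line's markers, VIM, CD44, AXL, MSN and CAV1 were detected on all 8 arrays, while SPARC, ESR1, PGR and the fibroblast and leukocyte genes DCN, LUM and PTPRC were detected on none. ERBB2, listed beforehand as low or absent, was detected on 0 estradiol arrays and 1 vehicle array. Its signal was not at the floor, with means of 7.85 in estradiol and 7.82 in vehicle cultures. Signals of different probes cannot be ordered as amounts of RNA, so values are compared only within a row.

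With estradiol, 23 of the 68 tested members fell, 1 rose and 44 did not pass the test (limma with Benjamini-Hochberg adjustment over 11191 rows, adjusted p under 0.05, 3 cultures a group). The 23 make up 33.8% of the members, where 14.1% of all tested rows were called lower and 13.5% were called higher. Of the 37 SNORA rows, 14 fell and 1 rose. Of the 25 SNORD rows, 8 fell and 0 rose, and of the 6 SCARNA rows, 1 fell and 0 rose. The median log2 change was -0.37 for SNORA rows, -0.28 for SNORD rows and 0.21 for SCARNA rows, against -0.02 over all tested rows. In 28 members every estradiol culture lay below every vehicle culture, and in 2 every estradiol culture lay above, where 23% and 19.8% of all tested rows did so. In all, 54 of the 68 changes (79.4%) were below 0, where 52.8% of all tested rows had a change below 0. A member could pass the detection filter through 1 group alone, and the counts are therefore of the members that passed and not of the 300. Without the filter, 18 of 300 members (6%) were called lower and 0 higher, where 4.82% of all 31412 rows were called lower, a share near that of the members. Among the 33 members that all 8 arrays detected, 15 fell and 0 rose (9 of 17 SNORA, 5 of 13 SNORD and 1 of 3 SCARNA rows), where 14.9% of the 8655 rows detected on all arrays fell.

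**Figure D1:**
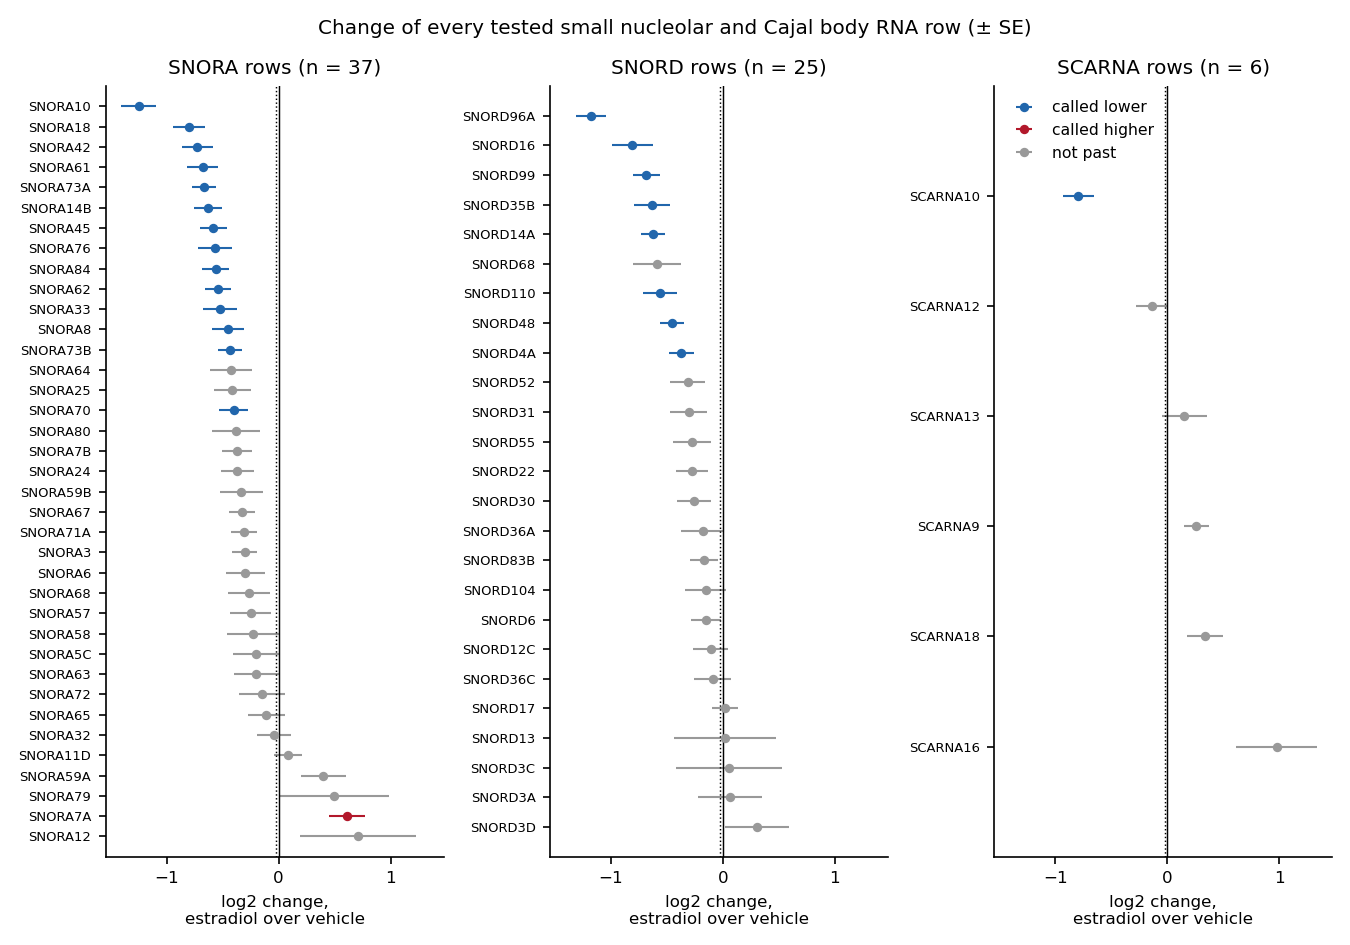
Log2 change of estradiol over vehicle (x axis, points ± SE, 3 cultures a group) for each of the 68 tested members, in 3 panels by class and sorted by change. Blue points fell (23), the red point rose (1), grey points did not pass the test (44), and the dotted line marks the median of all tested rows, -0.02.

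The count of falls depended on scaling and on the background model, while the median change of the 68 members was below 0 under all 20 alternatives, from -0.371 to -0.0198. Centring each array on its median in place of quantile normalization moved the median of all tested rows to 0.143 and that of the members to -0.161, and then 12 members fell (17.6%) and 2 rose. Over all rows this centring called 540 lower (4.83%) and 2052 higher, against 1576 lower and 1516 higher with quantile normalization. Taking the background from all rows, combined rows included, left 6 falls (8.82%), where 10.1% of all tested rows fell, so under that setting the members fell no more often than the rest. The arrays lay on 2 chips. Chip A held the first array of estradiol culture 1, vehicle culture 1 and the repeat of vehicle culture 3, and chip B held the rest. The changes of the 23 members within a chip ran from -1.20 to -0.117 on chip A and from -1.34 to -0.303 on chip B. These are the arrays on which the falls were called, and the cultures of the groups did not overlap in any of the 23, so their sign within a chip is no separate support. In a fit over the 8 arrays with the chip as a block and the culture as a random block, 34 members fell (50%), where 24% of all tested rows fell. Of the 23 falls, SNORA76 (adjusted p = 0.104, limma) and SNORD35B (adjusted p = 0.065, limma) did not pass there. The correlation within cultures was estimated at -0.569 in that fit, which counts a repeat array as more than a further culture, so its p-values may be too small.

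SNORA10 had the largest fitted fall among the H/ACA RNAs. This RNA, which lies within RPS2, read 5.88, 5.77 and 5.27 in estradiol cultures 1 to 3, against 6.997, 6.77 and 6.90 in vehicle cultures 1 to 3 (normalized log2 signal). All estradiol cultures lay below all vehicle cultures, and the gap was wider than the spread within either group. The change was -1.25 ± 0.16 (SE), or 2.38-fold lower with estradiol (adjusted p = 0.000235, limma). SNORA18, within TAF1D, read 7.32, 7.62 and 7.85 in estradiol cultures, against 8.48, 8.28 and 8.45 in vehicle cultures. This row was bright in both groups and fell 1.74-fold (log2 change -0.80 ± 0.14, adjusted p = 0.00202, limma). It also passed under all 20 alternatives, with changes from -1.20 to -0.231.

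SNORA61 was the brightest SNORA row on average and lies within the noncoding host SNHG12. It read 8.16, 8.17 and 8.52 in estradiol cultures, against 8.85, 8.85 and 9.18 in vehicle cultures. The groups did not overlap, and the row fell 1.60-fold (log2 change -0.68 ± 0.14, adjusted p = 0.00497, limma). SNORA42, within KHDC4, read 5.13, 5.18 and 5.11 in estradiol cultures, against 6.18, 5.70 and 5.72 in vehicle cultures. It was detected on 1 estradiol array and on 4 vehicle arrays, so the estradiol values lay near background, and its change was -0.73 ± 0.14 (adjusted p = 0.00321, limma).

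SNORA73A and SNORA73B, the U17 copies within SNHG3, both fell. SNORA73A was well above background on none of the 4 estradiol arrays and on all 4 vehicle arrays, with means of 5.09 in estradiol cultures and 5.75 in vehicle cultures. Set against the dimmest detected single-probe signal of each estradiol array, it was at least 1.45-fold lower with estradiol (adjusted p = 0.000988, limma). SNORA73B averaged 5.09 ± 0.04 in estradiol cultures and 5.52 ± 0.12 in vehicle cultures (SD, n = 3 each), with an adjusted p of 0.013 (limma). The copies are alike in sequence and may share signal on such probes. SNORA84, within IARS1, was likewise undetected on all estradiol arrays and detected on all vehicle arrays, and was at least 1.24-fold lower (means 4.96 in estradiol and 5.52 in vehicle cultures, adjusted p = 0.00709, limma).

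The other SNORA falls were SNORA14B, SNORA45, SNORA76, SNORA62, SNORA33, SNORA8 and SNORA70, with log2 changes from -0.63 to -0.40. SNORA70 and SNORA8 no longer passed without the repeat array of vehicle culture 3 (adjusted p = 0.0587 and 0.0799, limma). SNORA25, the third SNORA row by brightness, read 7.26, 7.89 and 7.85 in estradiol cultures and 8.07, 7.97 and 8.19 in vehicle cultures. Its change of -0.41 did not pass (adjusted p = 0.0862, limma), though the groups did not overlap.

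SNORA7A, within RPL32, was the single member that rose. It read 5.68, 5.27 and 5.76 in estradiol cultures, against 4.81, 4.86 and 5.22 in vehicle cultures. It was detected on all 4 estradiol arrays and on 0 vehicle arrays, and was at least 1.20-fold higher with estradiol (means 5.57 in estradiol and 4.96 in vehicle cultures, adjusted p = 0.0169, limma). The call was lost without estradiol culture 1 (adjusted p = 0.0621), without estradiol culture 3 (adjusted p = 0.0746, limma in both) and without the detection filter (adjusted p = 0.0531). Its near copy SNORA7B averaged 5.57 ± 0.13 in estradiol cultures and 5.94 ± 0.22 in vehicle cultures (SD, n = 3 each), and did not pass (log2 change -0.37, adjusted p = 0.063, limma).

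**Figure D2:**
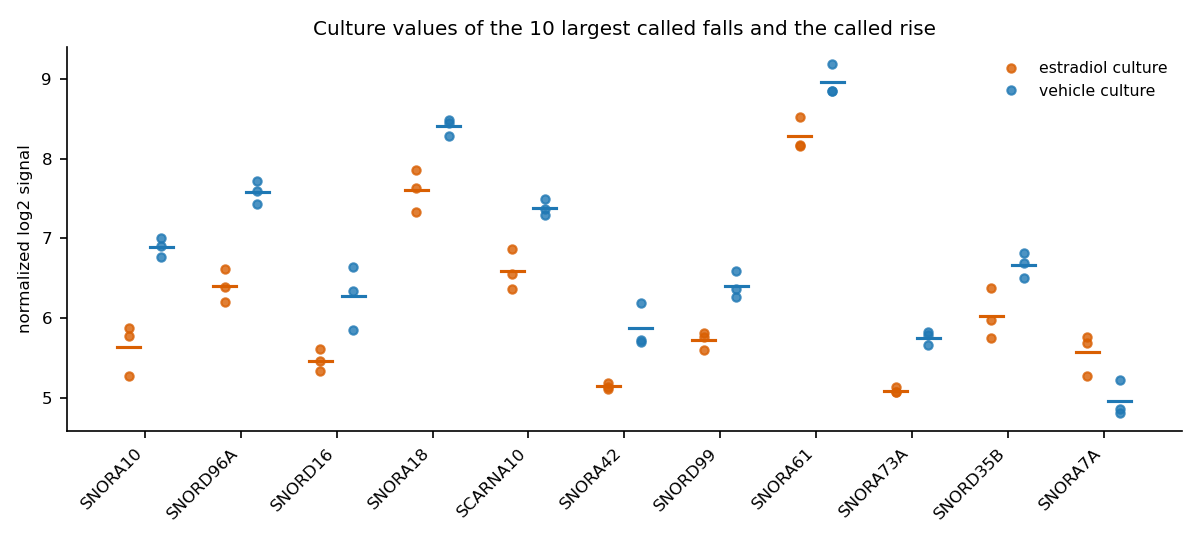
Normalized log2 signal (y axis) of each culture for the 10 largest called falls and the called rise, with estradiol cultures (orange) left of vehicle cultures (blue), 3 points each and a bar at the mean. In each of the 10 falls the orange points all lie below the blue points, and for SNORA7A they lie above.

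Among the box C/D RNAs, SNORD96A had the largest fitted fall. It was within 1 SE of that of SNORA10, and the order of these rows turned under some alternatives, among them no background correction. This guide of a ribosomal RNA methylation lies within RACK1, whose protein sits on the small ribosomal subunit, and read 6.62, 6.20 and 6.39 in estradiol cultures, against 7.43, 7.59 and 7.72 in vehicle cultures. The groups were well apart, and the row fell 2.26-fold (log2 change -1.18 ± 0.13, adjusted p = 0.000113, limma). SNORD16, within RPL4, read 5.61, 5.33 and 5.46 in estradiol cultures and 5.84, 6.34 and 6.64 in vehicle cultures. The vehicle cultures spread widely and culture 1 came close to the estradiol values, yet the row fell (log2 change -0.81 ± 0.18, adjusted p = 0.00775, limma).

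SNORD99 lies in SNHG12 beside SNORA61 and changed by nearly the same amount. It read 5.60, 5.81 and 5.77 in estradiol cultures and 6.59, 6.27 and 6.36 in vehicle cultures, a log2 change of -0.68 ± 0.12 (adjusted p = 0.00212, limma). SNORD35B read 6.37, 5.97 and 5.75 in estradiol cultures and 6.68, 6.81 and 6.50 in vehicle cultures. This fall (log2 change -0.64 ± 0.16, adjusted p = 0.0142, limma) was the least stable of the 10 largest, since it was also lost without estradiol culture 2 (adjusted p = 0.0518, limma) and without estradiol culture 3 (adjusted p = 0.0638, limma). SNORD14A, the U14 RNA that both guides a methylation and takes part in precursor cleavage, fell as well (log2 change -0.62, adjusted p = 0.00156, limma). SNORD110, SNORD48 and SNORD4A were the remaining falls, with log2 changes from -0.56 to -0.37.

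The brightest SNORD rows did not follow them. SNORD13, which pairs with the small subunit's ribosomal RNA to guide an acetylation, read 7.46, 8.42 and 8.27 in estradiol cultures and 9.32, 7.25 and 7.52 in vehicle cultures. Vehicle culture 1 was the highest of all and the other vehicle cultures were at the low end, so the groups overlapped (log2 change 0.02 ± 0.45, adjusted p = 0.98, limma). SNORD3A, a U3 copy, averaged 7.67 ± 0.19 in estradiol cultures and 7.61 ± 0.73 in vehicle cultures (SD, n = 3 each). SNORD104 averaged 7.32 ± 0.23 in estradiol cultures and 7.47 ± 0.37 in vehicle cultures (SD, n = 3 each). Neither passed the test (adjusted p = 0.896 and 0.566, limma).

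Of the Cajal body RNAs, SCARNA10 alone passed. This RNA, also named U85, guides changes of the U5 small nuclear RNA and lies within the condensin gene NCAPD2. It read 6.86, 6.36 and 6.55 in estradiol cultures, against 7.29, 7.37 and 7.49 in vehicle cultures, and fell 1.73-fold (log2 change -0.79 ± 0.14, adjusted p = 0.00192, limma). The other Cajal body rows lay at or above their vehicle level on average, except SCARNA12 (log2 change -0.14). SCARNA16 read 5.56, 6.50 and 6.56 in estradiol cultures and 6.13, 4.72 and 4.83 in vehicle cultures. Its change of 0.98 ± 0.36 did not pass (adjusted p = 0.0662, limma), and vehicle culture 1 lay among the estradiol values. Without vehicle culture 1 it was 1.43 (adjusted p = 0.00318, limma). SCARNA18 averaged 6.50 ± 0.31 in estradiol cultures and 6.17 ± 0.17 in vehicle cultures, and SCARNA13 averaged 5.95 ± 0.10 in estradiol cultures and 5.80 ± 0.48 in vehicle cultures (SD, n = 3 each), with adjusted p of 0.145 and 0.603 (limma).

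Most members lie inside another gene. By the RefSeq table of GRCh38.p14, 293 of the 300 are enclosed by at least 1 gene and 7 by none, among them SNORD13 and the 3 U3 rows. Of the 68 tested members, 63 lie in 50 distinct hosts. Of these 63, 47 lie in protein-coding genes, 15 in noncoding RNA genes and 1 in a pseudogene, and 21 lie in genes of ribosomal proteins, of which 9 fell. Of the 15 in noncoding RNA genes 5 fell. Over all tested members 33.8% fell, and over all tested rows 14.1%. For 49 members the host's own row was tested too, which gave 37 distinct host rows. Of those, 6 fell (16.2%) and 1 rose, with a median log2 change of -0.09. That share is close to the 14.1% of all tested rows that fell. Detection did not always follow signal in host rows. ZFAS1 (row C20orf199, means 10.98 in estradiol and 11.25 in vehicle cultures) and SNHG8 (8.23 and 8.63) were detected on 0 arrays and left untested. IARS, 1 of the falling host rows, was detected on 1 estradiol and 2 vehicle arrays. The host counts therefore cover only the rows that passed the filter.

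A falling host was about as common among falling members as among members that did not pass. Of the 19 falling members with a tested host row, 3 had a host that fell: SCARNA10 in NCAPD2 (-0.79 and -0.78), SNORD16 in RPL4 (-0.81 and -0.62) and SNORA84 in IARS1 (row IARS, -0.56 and -0.61, log2 change of member and host). The other 16 had a host that did not pass. Among members that did not pass, 5 had a host that fell, 1 had a host that rose and 23 had a host that did not pass. Of the tested host rows 16.2% fell, and of all tested rows 14.1%, so 3 of 19 is near those shares. SNORA10 fell by 1.25 on the log2 scale, whereas RPS2 averaged 12.94 in estradiol cultures and 13.13 in vehicle cultures (log2 change -0.19, adjusted p = 0.312, limma). SNORD96A fell by 1.18, whereas RACK1, listed under its older symbol GNB2L1, had a log2 change of -0.05 (adjusted p = 0.745, limma). Across the 49 pairs Pearson's r of the changes was 0.0923 and Spearman's rho was 0.0319. These are descriptions across genes, which share arrays and, in part, hosts. In 32 of the 49 pairs both changes had the same sign, and in 37 the member's change lay below that of its host. Changes below 0 made up 79.4% of the tested members and 70.3% of the tested host rows. Many pairs would therefore share a sign however they were matched. The difference within a pair was not tested.

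**Figure D3:**
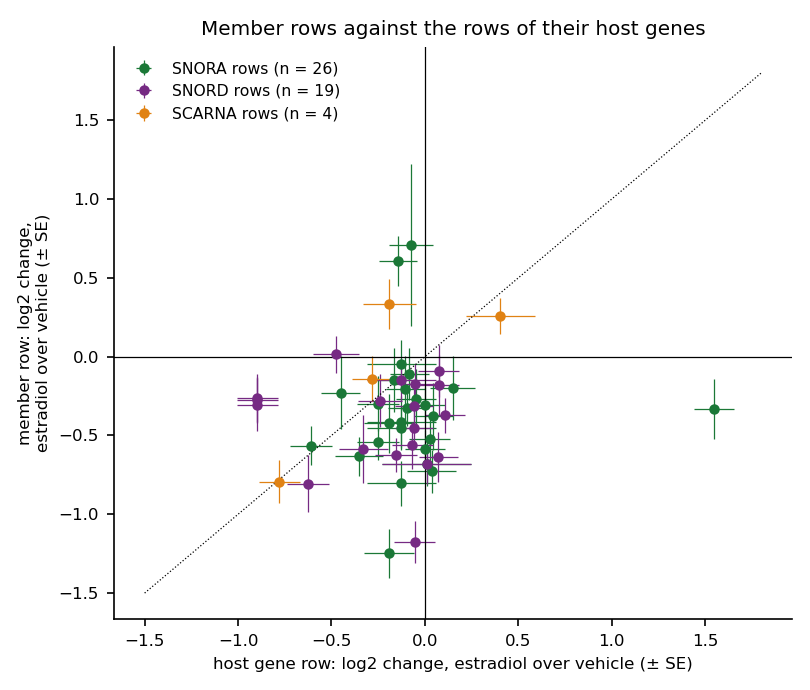
Log2 change of each member (y axis) against that of its host gene's row (x axis), estradiol over vehicle ± SE, for 49 members, coloured by class. The dotted line marks equal change, and 37 of the 49 points lie below it.

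Members of a single host also differed in size of change. TAF1D, a subunit of the factor that starts ribosomal RNA transcription, holds 5 tested members and had a log2 change of -0.13 itself (adjusted p = 0.644, limma). SNORA18 and SNORA8 fell (-0.80 and -0.45), while SNORA25 (-0.41), SNORD6 (-0.15) and SNORA32 (-0.04) did not pass. RPS2 holds SNORA64 next to SNORA10, and SNORA64 did not pass (-0.42, adjusted p = 0.119, limma). SNHG12 holds 2 members and both fell. Its own row was imprecise, with a log2 change of 0.01 ± 0.24 (SE). The row of SNHG1 fell (log2 change -0.90, adjusted p = 0.000202, limma). SNORD31, SNORD22 and SNORD30 within it did not pass, though their log2 changes of -0.30, -0.28 and -0.26 were also below 0. SNORA59B lies in SLC47A1, a transporter gene detected on all 4 estradiol arrays and on 0 vehicle arrays, and had a log2 change of -0.33 (adjusted p = 0.229, limma). Differences between members of a host were not tested.

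Many hosts of small nucleolar RNAs start with a C followed by further pyrimidines, the 5′ TOP element of genes for the translation machinery. The starts of 7 hosts are shown because they hold SNORA61 and SNORD99, SNORA18 and SNORA8, SNORD96A, SNORA62, SNORD16, the rising SNORA7A, and 3 tested members within SNHG1, whose own row fell. Each line gives the gene strand 5′ to 3′, 15 bases before and 15 from the start annotated by RefSeq in GRCh38.p14, and capitals mark the unbroken run of C and T that begins with a C at the start.
SNHG12, chr1:28581859-28581888, minus strand: tcgcggcttcagcgcCCTTTCTCCCCgccg
TAF1D, chr11:93741481-93741510, minus strand: acggaaatagccaacCCTTTTCTTCCgcac
RACK1, chr5:181243892-181243921, minus strand: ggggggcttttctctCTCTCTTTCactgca
RPSA, chr3:39406705-39406734, plus strand: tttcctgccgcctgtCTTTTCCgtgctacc
RPL4, chr15:66504841-66504870, minus strand: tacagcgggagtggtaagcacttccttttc
RPL32, chr3:12841551-12841580, minus strand: gggttacgacccatcagcccttgcgcgcca
SNHG1, chr11:62855871-62855900, minus strand: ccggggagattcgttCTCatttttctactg

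A run of at least 5 such bases, searched on the gene strand only, was found at 10 of 16 hosts of falling members that had a window (62.5%), in SNHG12, TAF1D, RACK1 and RPSA among them. It was found at 7 of 25 hosts whose tested members did not fall (28%), and at 1429 of 35116 annotated starts in all (4.07%). RPL4, RPL32 and SNHG1 had no such run at these annotated starts. The members called lower were chosen on their own change, so these shares are a description with no test.

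Gene rows for the protein partners of the members were read on the same arrays, from a list of core and assembly proteins. These rows report RNA, and no protein was measured. Of 26 tested rows, 11 fell (42.3%) and 0 rose, where 14.1% of all tested rows fell and 13.5% rose. Their median log2 change was -0.23, and 15 did not pass. DKC1, the pseudouridine synthase of H/ACA particles, averaged 11.13 ± 0.03 in estradiol cultures and 11.74 ± 0.07 in vehicle cultures (SD, n = 3 each) and fell by 0.61 on the log2 scale (adjusted p = 0.00149, limma). FBL, the methyltransferase of C/D particles, averaged 11.49 ± 0.19 in estradiol cultures and 12.14 ± 0.02 in vehicle cultures and fell by 0.66 (adjusted p = 0.00242, limma). NOLC1, a chaperone of both kinds of particle, fell by 0.51 and NOP58, a core C/D protein, fell by 0.72 (adjusted p = 0.00451 and 0.0131, limma). By group, the rows of 2 of 4 H/ACA core proteins, 2 of 4 C/D core proteins and 5 of 11 assembly factors fell. The rows of 2 of 3 Cajal body proteins fell, and of 0 of 4 enzymes of RNA ends. Of the 81 tested ribosomal protein genes, 4 fell (4.94%) and 1 rose, with a median log2 change of -0.10. Of 39 tested rows for other small noncoding RNAs, 5 fell (12.8%, near the share of all rows) and 1 rose, with a median of -0.13.

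The repeat array of vehicle culture 3 read low for some of the members. That array was part of how they were singled out, and a single culture gives no replicate, so no test was made. Over the 68 tested members the median difference of repeat minus first array was -0.18, against 0.05 over all tested rows. It was -0.05 for SNORA, -0.29 for SNORD and -0.36 for SCARNA rows. The repeat lay at least 1 log2 unit below the first array in 7 of the 68 members (10.3%), where 3.16% of all tested rows did so, and at least 1 above it in 0 members, where 0.206% of all rows did so. In 40 of 68 members (58.8%) the repeat lay below the first array at all, against 44.6% of all rows. The 2 arrays lay on different chips. The repeat of estradiol culture 1 lay below its first array in a like share, 39 of 68 members (57.4%), against 50.2% of all rows. Its differences were smaller, with a median of -0.04 over the members and 0 of 68 at least 1 log2 unit below, where 0.134% of all tested rows were.

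**Figure D4:**
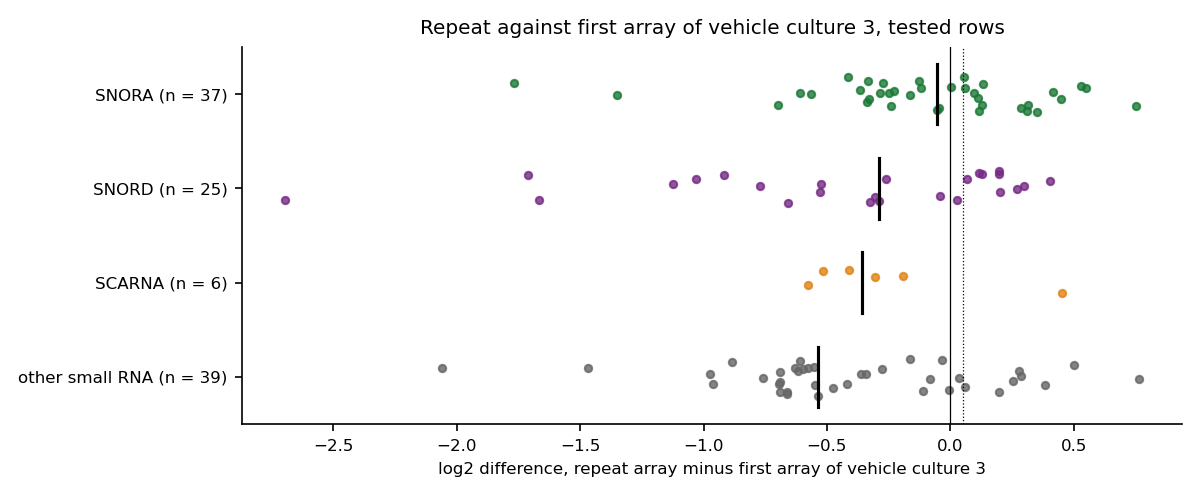
Log2 difference of the repeat minus the first array of vehicle culture 3 (x axis) for tested SNORA, SNORD and SCARNA rows and for 39 other small noncoding RNA rows, 1 point a row with a bar at the median; vertical scatter is only for legibility. The medians are -0.05, -0.29, -0.36 and -0.54, and the dotted line marks that of all tested rows, 0.05.

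The 6 lowest members on that repeat were SNORD3D, SNORA12, SNORD13, SNORD3C, SNORA57 and SNORD3A, and the seventh member at least 1 log2 unit lower was SNORD104 (-1.03). SNORD3D read 5.10 on the repeat and 7.80 on the first array of vehicle culture 3, a difference of -2.70. SNORA12 read 5.58 on the repeat and 7.35 on the first array. SNORD13 read 6.67 on the repeat and 8.38 on the first array. The U3 copies are near identical in sequence and may share signal, so SNORD3A, SNORD3C and SNORD3D are not separate evidence. On the other side, SNORA72, SNORA68 and SNORA59B read 0.75, 0.55 and 0.53 higher on the repeat, and each was detected on 3 of the 8 arrays.

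The same 6 rows also varied across the other arrays. In vehicle culture 1 SNORD3C read 7.72, against 5.54 in vehicle culture 2 and 6.41 and 4.74 on the first and repeat array of vehicle culture 3. In estradiol cultures SNORD3C read 6.05 and 5.77 on the first and repeat array of culture 1, 6.44 in culture 2 and 6.65 in culture 3. The highest value was thus in vehicle culture 1 and the lowest on the repeat of vehicle culture 3, both on chip A. Between pairs of the 6 rows, Pearson's r over the 8 arrays ran from 0.668 to 0.994, a description in which the arrays are shared and the rows were chosen for a like difference. SNORA57 had its highest value on the first array of vehicle culture 3 (6.73), with 6.67 in vehicle culture 1.

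**Figure D5:**
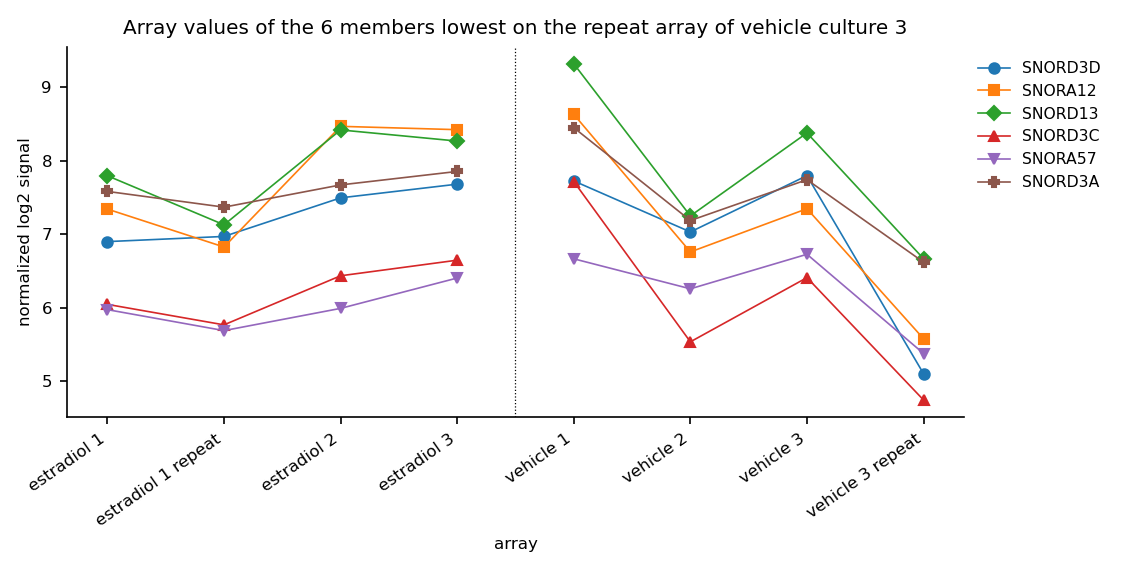
Normalized log2 signal (y axis) on each of the 8 arrays (x axis, estradiol left of vehicle) for the 6 members lowest on the repeat array of vehicle culture 3; lines only join the points of a row. All 6 are lowest on that repeat, and 4 (SNORA12, SNORD13, SNORD3C and SNORD3A) are highest in vehicle culture 1.

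Some members varied more between cultures than nearly all other rows. For 7 members the standard error of the estradiol change was over 0.25, a limit set after the values were seen, and all 7 lay at or above the 99.8 percentile of the 11191 tested rows. They were SNORA12, SNORA79, SNORD3C, SNORD13, SCARNA16, SNORD3A and SNORD3D, so SNORA57 of the 6 rows above was not among them. SNORA12 had the widest standard error of any tested row (0.51), reading 7.08, 8.47 and 8.42 in estradiol cultures and 8.63, 6.76 and 6.46 in vehicle cultures. Without vehicle culture 1, SCARNA13, SCARNA16, SNORA12, SNORA79, SNORD3A and SNORD3C were called higher with estradiol besides SNORA7A, which makes 7 rises in place of 1. In that fit 1687 of all 11191 tested rows were called higher, against 1516 in the main fit. The share of the 68 members that rose was thus no larger than that of all rows. Other small noncoding RNAs also read low on the repeat of vehicle culture 3, with a median of -0.54 over 39 tested rows and 30 of them below the first array. All 12 tested RNU rows, most of them spliceosomal RNAs, lay below, as did 12 of 21 microRNA rows. The telomerase RNA TERC, which carries an H/ACA domain, read 5.78 on the repeat and 7.84 on the first array, and RPPH1, the RNA of RNase P, read 6.17 on the repeat and 7.64 on the first array. These 2 were picked after their values were seen. What made that array low was not tested.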

How the data were processed

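Total RNA was labelled and hybridised to Illumina bead arrays, per the labels' protocols. The deposited non-normalized table holds signal intensity per gene row, not yet scaled between arrays. Its detection p-value columns are the authors' own, as deposited. A second deposited table holds the authors' normalized intensity, and the sources used here give no scaling method for it. The 3266 rows with no symbol were left out.

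With R 4.3.3 and limma 3.58.1, signals were background-corrected (normexp, negative controls inferred from the 24130 rows of 1 probe, whose detection p-values are multiples of 1 in 770 within 0.002), raised by 16, quantile normalized and log2 transformed. The value 16 shrinks the changes of dim rows, which most members are. Rows detected at p under 0.01 on at least 3 of 8 arrays were tested (lmFit, eBayes), with an adjusted p threshold of 0.05. The script was tested on simulated data. The number of arrays limits the precision.

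A host is the shortest RefSeq gene (GRCh38.p14) that encloses a member, taken among genes with a row where there was one (269 of 293 members). All 300 symbols matched, 289 as current symbols and 11 through a synonym. The members' strand was not checked.

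Members, gene lists and tests were chosen with earlier results of these data known. The text names the 10 largest called falls, the called rise, the 4 brightest members of each class, the 6 lowest and 3 highest on the vehicle repeat array, hosts of these, and 4 partner proteins with the smallest p. Other members are named where they fell or share a host or copy.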

Additional observations from a re-analysis of the deposited data

Results flagged for a closer look

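In 1 of 50 groups of 4 arrays examined for the 25 named members, a single array stood apart by Dixon's criterion for 4 values. SCARNA16 read 6.133 on the array of vehicle culture 1, while the other vehicle arrays read 4.723 to 4.921, and the gap to the nearest was 0.859 of the whole range, above the critical value at 95%. Chance alone marks about 1 in 20 such groups where the 4 values are independent. Each group here held a culture with a repeat array, so that rate is only a rough guide.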

How the results depend on the processing

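Of the counts, 23 falls and 1 rise, the following moved by over 1.5 times. Chip A alone gave 1 fall and 0 rises, background from all rows gave 6 falls and 0 rises, and median centring gave 12 falls and 2 rises. First arrays only gave 2 rises, so did the authors' normalized values, while the chip as a block gave 3 and no detection filter 0. Of the 10 largest falls, 9 did not pass on chip A alone (log2 changes -1.03 to -0.175), where 1 estradiol array stood against 2 vehicle arrays, its spread was taken from the vehicle arrays, and 1.13% of all tested rows fell, and 4 did not with background from all rows (-0.0506 to -0.0294). SNORA7A did not pass on chip A alone (0.921), on chip B alone (0.468) or with background from all rows (0.0258), and SNORD35B did not with median centring (-0.442). SCARNA16 passed with first arrays only (1.02), the chip as a block (0.856), chip B alone (1.3), median centring (1.11) and the authors' values (0.592), SNORA25 passed with the estradiol repeat averaged with culture 3 (-0.508) and the chip as a block (-0.736), and SNORA59B on chip B alone (-0.447). Leaving out each culture gave 16 to 25 falls and 0 to 7 rises. Over all 11191 tested rows, those fits called 8.22% to 15.1% lower and 1035 to 1687 rows higher. The median of repeat minus first array in vehicle culture 3 was -0.097 without background correction, -0.239 with median centring, -0.0838 in the authors' table, -0.0361 over all member rows and -0.242 over members detected on either array. Log2 before quantile normalization, added after the data were seen, again gave 23 falls and 1 rise.

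Several changes that had not passed turned in sign; the cause was not tested. SNORD13 was -0.0593 with the estradiol repeat averaged with culture 3, -0.155 with first arrays only, -0.266 without the vehicle repeat array, -0.0157 with the chip as a block, -0.197 on chip A, -0.0301 without background correction, -0.118 with background from all rows and -0.00641 in the authors' table. SNORD3C was under those settings -0.0475, -0.178, -0.225, not turned with the chip as a block, -0.185, -0.0541, -0.0332 and -0.0485. SNORD3A was -0.0901 with first arrays only, -0.126 without the vehicle repeat array and -0.0244 with background from all rows. SNORD3D was -0.159 with first arrays only, -0.148 without the vehicle repeat array and -0.0322 on chip B. SNORA72 was 0.023 with first arrays only and 0.153 on chip B. SNORA68 was 0.1 with the chip as a block and 0.15 on chip A. SNORD104 was 0.0827 on chip A and 0.0734 with median centring, and SNORA59B was 0.184 on chip A. Leaving out each culture gave -0.371 to 0.664 for SNORD13, -0.318 to 0.773 for SNORD3C, -0.151 to 0.483 for SNORD3A, -0.00782 to 0.63 for SNORD3D, -0.285 to 0.0607 for SNORD104, -0.388 to 0.0108 for SNORA72 and -0.00899 to 0.432 for SCARNA13.

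Deviations of same-numbered cultures correlated at 0.133, 0.133 and -0.0328, and those of differently numbered cultures at -0.163 to 0.0895. With 3 cultures a group, these values cannot settle whether replicate numbers pair the cultures. With the replicate number as a block, 25 members fell (36.8%) and 1 rose, where 15% of all tested rows fell. Signal over background limits the dim members most.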
